A study of Mus musculus with 48 samples.

Results

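The vacuolar-type proton ATPase (V-ATPase) was followed through 10 of its subunit genes in the brain of 46 mice, measured by RNA-seq. The 10 genes comprise 4 subunits of the membrane sector V0 (Atp6v0a1, Atp6v0b, Atp6v0c and Atp6v0d1) and 6 subunits of the cytosolic sector V1 (Atp6v1a, Atp6v1b2, Atp6v1c1, Atp6v1d, Atp6v1e1 and Atp6v1h). All 10 were found by their symbols among the 48709 gene identifiers of the count tables. The genes were selected on measured values: the level of Atp6v0c per mouse in a cross of Fmn2 mutant and amyloid mice was part of their choice, so differences of the 10 genes in that cross are given as a description with no test.

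The V-ATPase is a rotary pump. The V1 sector binds and hydrolyses ATP through its A and B subunits (Atp6v1a and Atp6v1b2), a central stalk that includes subunit D (Atp6v1d) and subunit d of V0 (Atp6v0d1) passes the rotation on, and the ring of c and c'' subunits in V0 (Atp6v0c and Atp6v0b) carries protons past subunit a (Atp6v0a1) into the lumen. The E and C subunits (Atp6v1e1 and Atp6v1c1) belong to the peripheral stalks that hold the complex still, and subunit H (Atp6v1h) is needed for activity and silences V1 once it has come off V0. In neurons the pump acidifies lysosomes and endosomes and builds the proton gradient with which synaptic vesicles take up neurotransmitter.

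The mice, all of C57BL/6J strain by the labels and male by the study's methods, fell into 8 groups. Dentate gyrus, the hippocampal region of the granule cells, came from 5 Fmn2+/+ and 5 Fmn2-/- mice of 3 months and from 3 Fmn2+/+ and 5 Fmn2-/- mice of 8 months. Fmn2 encodes formin 2, an actin nucleator, and the Fmn2-/- mice carry a knockout of it. A further 16 mice of 3 months, also dentate gyrus by the labels, all carried the APPPS1-21 transgene, which drives mutant human APP and mutant presenilin 1 from a neuronal Thy1 promoter: 7 were labelled Fmn2-/-_APP and 9 were labelled Fmn2+/+_APP. Another 6 APP and 6 wild type mice were labelled as 4 months and dentate gyrus, while their titles named prefrontal cortex. The comparisons ask whether loss of Fmn2 changes the subunits in young mice, in older mice and in the presence of amyloid, and whether amyloid alone does.

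Fmn2 was at 93.2 to 109 CPM (counts scaled to library size, with TMM factors) in 3-month Fmn2+/+ mice and at 22.2 to 27.4 CPM in Fmn2-/- mice, but at 83.3 to 101.8 CPM in the libraries labelled Fmn2-/-_APP and at 18.9 to 23.4 CPM in the libraries labelled Fmn2+/+_APP, so in the cross it went against the labels. The titles carried the letter W for the libraries labelled Fmn2-/-_APP and K for those labelled Fmn2+/+_APP, and the meaning of these letters was not examined. Every direction drawn from the cross therefore refers to the labels only. Total counts ran from 6818809 to 43921030 per mouse, and the 8-month mice other than Fmn2+/+ replicate 1 had the lowest, from 6818809 to 11675280. The 6 granule cell markers (Prox1, Dsp, C1ql2, Tdo2, Lct and Calb1) summed to 646 to 1237 CPM in the 34 mice outside the 4-month groups and to 122 to 180 CPM in the 12 mice of 4 months, where the 5 cortical neuron markers summed to 549 to 625 CPM against 117 to 325 CPM elsewhere. These 12 are therefore called mice of 4 months here, with no tissue named. The choroid plexus markers reached 9130 and 5994 CPM in the libraries labelled Fmn2+/+_APP replicates 4 and 5 and 4125 CPM in 3-month Fmn2-/- replicate 4, and lay at 1.99 to 607 CPM in all other mice. The counts of 8-month Fmn2-/- replicates 2 and 3 differed by little more than sampling noise (a chi-square of 1.62 per degree of freedom, with 3.50 or more for every other pair within a group). Nothing in the labels says that replicates came from separate litters, so p-values measure the spread between these mice.

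Of the 10 genes, 9 were expressed at high level in every mouse, while few reads were assigned to Atp6v0c. Per length of annotated exon, in RPKM (reads scaled by exon length and library size), the ATP-binding subunits A and B stood highest: the median over the 46 mice was 154 RPKM for Atp6v1a (range 95.4 to 222) and 150 RPKM for Atp6v1b2 (range 114 to 179). Atp6v0d1 followed at 125 RPKM, Atp6v1e1 at 113, Atp6v0b at 87.6, Atp6v1d at 72.5, Atp6v0a1 at 70.2 and Atp6v1c1 at 54.4 RPKM. Atp6v1h lay at 19.0 RPKM (range 13.8 to 22.9) and Atp6v0c at 2.96 RPKM (range 1.54 to 16.2). Neighbours in this order overlapped in their ranges, except that every value of Atp6v1c1 (lowest 43.6 RPKM) was above every value of Atp6v1h. The exon length joins all annotated transcripts of a gene, which lowers the value per length unevenly. It was 3384 bases for Atp6v0c, 9746 for Atp6v1h, 4110 for Atp6v1e1, 5305 for Atp6v1b2 and 6044 for Atp6v1a. The longest coding transcripts of these genes had 1183, 2049, 1312, 2825 and 4234 bases. The order, including which subunits stand highest, therefore depends on the length used. The reads of Atp6v0c are also hard to separate from those of a near-copy, described below, so its place in this order is uncertain.

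By coefficient of variation, Atp6v0c was also the most variable of the 10 in most groups, but on few reads. The coefficient of variation of the CPM, taken over the mice of a group, had a median over the 10 genes between 5.05% and 11.6% in the 8 groups. In 5 of the 8 groups Atp6v0c had the highest of the 10, up to 35.5% in 3-month Fmn2-/- mice and 34.5% in the libraries labelled Fmn2-/-_APP. The 34.5% comes from mice by which the gene was chosen and is a description only. In 8-month Fmn2-/- mice Atp6v0c had 49 to 83 reads per mouse, against 1528 to 2134 for Atp6v0b. Its coefficient of variation of 13.8% there includes counting error, which was not separated out. The split of reads with its near-copy, described below, can also enter these values.

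**Figure D1:**
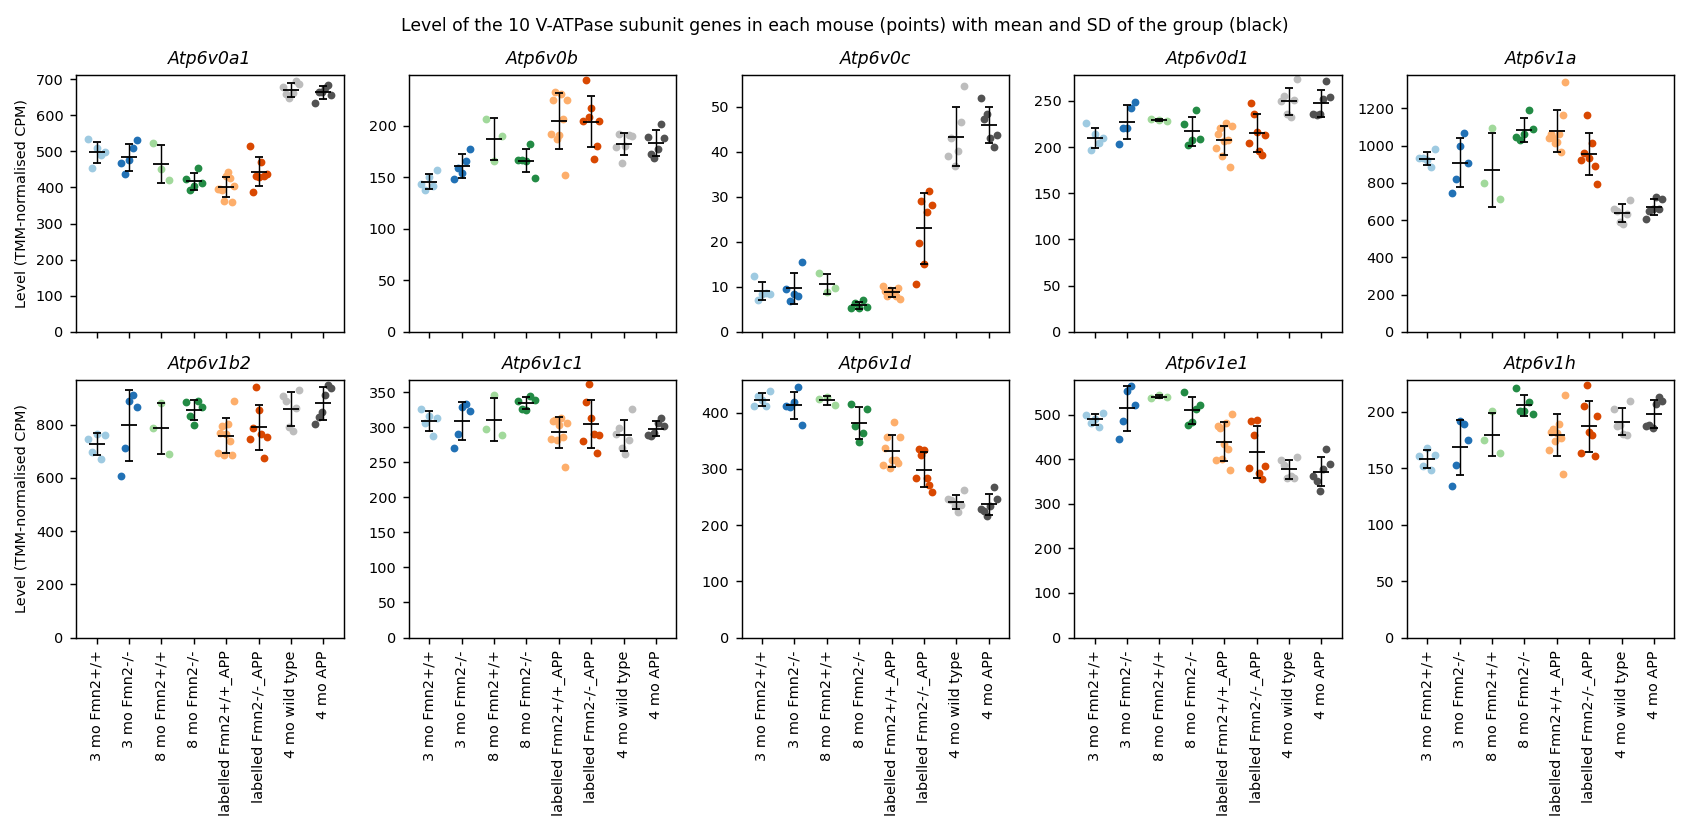
Level of each subunit gene in TMM-normalised CPM (vertical axes, starting at 0) in the 8 groups (horizontal axes); each point is a mouse, and the black line and bar are the mean and SD of the group. Atp6v0c lies between 5.20 and 15.5 CPM in the first 5 groups, between 10.6 and 31.4 CPM in the libraries labelled Fmn2-/-_APP, and between 36.8 and 54.7 CPM in the mice of 4 months.

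The 12 mice of 4 months were set beside the 34 other mice, as a description with no test. Region by title and age go together in this contrast, and the Fmn2-/- mice and the mice of the cross are all among the others. Region, age and genotype therefore cannot be told apart. The ranges of 2 of the 10 genes did not overlap, both higher in the mice of 4 months, a share no higher than the 22.9% among the 16274 genes above 1 CPM in at least 3 mice. Atp6v0a1, the form of subunit a best known from neurons and synaptic vesicles, was at 634 to 696 CPM (median 664) in the mice of 4 months and at 360 to 534 CPM (median 434) in the others. Atp6v0c was at 36.8 to 54.7 CPM (median 43.4) against 5.20 to 31.4 CPM (median 8.76), a ratio of the medians of 4.96. Its near-copy Atp6v0c-ps2, described below, went the other way, with medians of 3.32 and 21.9 CPM, a ratio of 0.152. With the reads of both added, the mice of 4 months were at 40.1 to 58.6 CPM. This overlapped the 3-month Fmn2-/- mice, at 20.8 to 51.6 CPM. The ratios were lowest for 3 subunits of V1, whose ranges overlapped. Atp6v1d had a median of 235 CPM in the mice of 4 months (highest 268) and of 369 CPM in the others (lowest 259), a ratio of 0.636, and Atp6v1a had medians of 655 and 1005 CPM, a ratio of 0.652. Atp6v1e1 stood at a ratio of 0.768, and the other 5 genes at ratios between 0.939 and 1.17.

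By role, the groups lined up differently from subunit to subunit. Of the V0 sector, Atp6v0d1, the central stalk subunit d, was steady: the medians of the 8 groups lay between 208 CPM in the libraries labelled Fmn2+/+_APP and 250 CPM in wild type mice of 4 months. Atp6v0b, of the proteolipid ring, had its lowest median in 3-month Fmn2+/+ mice (143 CPM) and its highest in the libraries labelled Fmn2+/+_APP (206 CPM), whose range of 152 to 233 CPM overlapped that of every other group. Atp6v0a1 had medians of 499 and 475 CPM at 3 months, 452 and 413 CPM at 8 months, and 396 and 432 CPM in the libraries labelled Fmn2+/+_APP and Fmn2-/-_APP.
Of the V1 sector, Atp6v1b2, the non-catalytic B subunit, and Atp6v1c1, of a peripheral stalk, had group medians that differed little, from 746 to 880 CPM and from 286 to 338 CPM. Atp6v1d, the rotor subunit D, differed most between the groups among the V1 genes. It was at 412 to 438 CPM in 3-month Fmn2+/+ mice and at 302 to 384 CPM in the libraries labelled Fmn2+/+_APP. Those labelled Fmn2-/-_APP were at 259 to 335 CPM and the mice of 4 months at 217 to 268 CPM. The Fmn2-/- mice were at 377 to 446 CPM at 3 months and at 348 to 416 CPM at 8 months. Both overlapped the 3-month Fmn2+/+ mice and the libraries labelled Fmn2+/+_APP. Atp6v1e1, of the peripheral stalks, had its highest median in 8-month Fmn2+/+ mice (539 CPM) and its lowest in APP mice of 4 months (371 CPM). In bulk tissue, fewer cells of a type and less RNA per cell cannot be told apart.

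Atp6v0c lies on chromosome 17 (mm10, 24163866 to 24169702, minus strand) and has a near-copy in the genome, and reads of the 2 are hard to separate. The pseudogene Atp6v0c-ps2, a processed copy on chromosome 6 (37806086 to 37806550, plus strand), is annotated over 465 bases, from the start codon of the Atp6v0c coding sequence. In the GENCODE sequences it differed from the longest Atp6v0c transcript at 1 of these bases, T111C, counted from the A of the start codon as 1, with the base of Atp6v0c first. Bases 81 to 141 around it are shown because they are the stretch by which the 2 annotated sequences differ, with the differing base in capitals.
Atp6v0c: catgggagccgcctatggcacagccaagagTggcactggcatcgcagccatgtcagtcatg
Atp6v0c-ps2: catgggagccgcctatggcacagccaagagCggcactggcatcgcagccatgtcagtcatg
Of the 416 windows of 50 bases within the copy, 366 (88.0%) were identical to Atp6v0c. Over the whole Atp6v0c transcript, 32.5% of the windows of 50 bases also occurred in a transcript of another gene, against 0 to 2.42% for the other 9 subunits, of which Atp6v0b had the highest, through the gene model Gm12841. The read length and the treatment of reads that match both copies are not given in the sources used here, and whether the copy extends beyond its annotation was not examined. The level of Atp6v0c is for these reasons uncertain.

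The 2 gene models shared the reads in different proportions in different mice. In the 18 dentate gyrus mice without the transgene, Atp6v0c held between 20.2% and 39.3% of the reads of the pair. In the 12 mice of 4 months it held between 91.8% and 94.9%. In the 9 libraries labelled Fmn2+/+_APP its share was between 20.7% and 28.9% in 8 mice and 46.1% in replicate 8 (95% Wilson interval 41.7% to 50.5%). The 7 libraries labelled Fmn2-/-_APP ranged widely. Replicate 1 stood at 24.6% (22.7% to 26.7%), replicate 2 at 52.9% (49.5% to 56.2%) and replicate 4 at 54.5% (51.6% to 57.4%). Replicates 3, 5, 6 and 7 stood at 92.95%, 89.3%, 89.5% and 92.99%, with intervals that together ran from 86.9% to 94.6%. Such intervals cover counting error only. The values of the cross fell into 3 ranges, with none between 28.9% and 46.1% or between 54.5% and 89.3%. The other annotated pseudogene, Atp6v0c-ps1, was at 0 to 0.690 CPM in all mice.

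**Figure D2:**
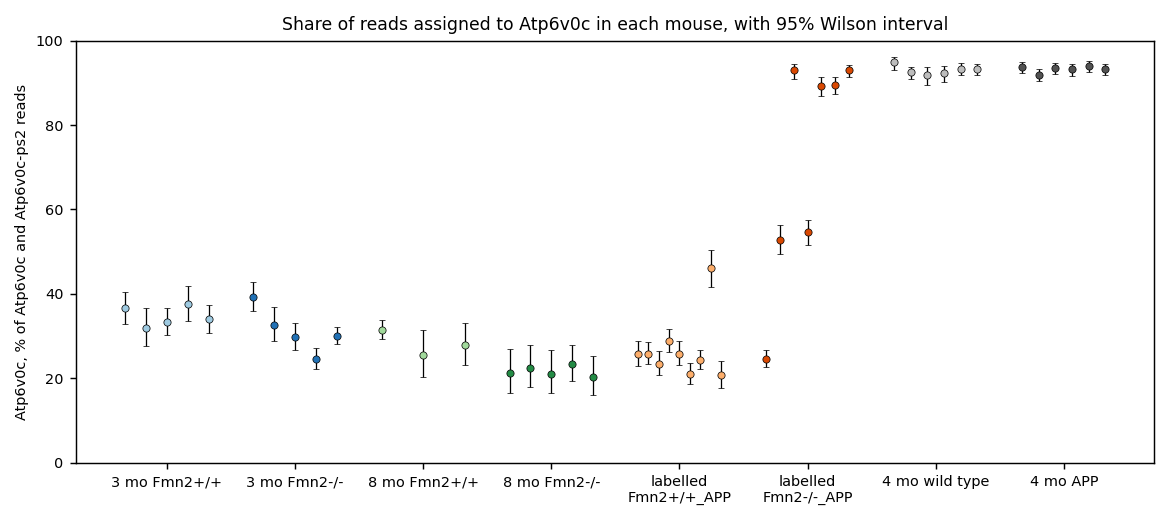
Reads assigned to Atp6v0c as a percentage of the reads of Atp6v0c and Atp6v0c-ps2 (vertical axis) in each mouse, by group (horizontal axis); bars are 95% Wilson intervals, which cover counting error only. The 12 mice of 4 months sit at 91.8% or above, the dentate gyrus mice without the transgene at 39.3% or below, and the libraries labelled Fmn2-/-_APP range from 24.6% to 92.99%.

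In the cross, Atp6v0c was the member that stood apart, as its choice fixed. It was at 7.29, 7.88, 7.99, 8.49, 8.57, 9.04, 9.31, 9.72 and 10.3 CPM in the libraries labelled Fmn2+/+_APP. In those labelled Fmn2-/-_APP, replicates 1 to 7, it was at 10.6, 19.7, 29.02, 15.0, 26.7, 31.4 and 28.3 CPM. The groups did not overlap, but replicate 1 of the second lay just above the highest mouse of the first. The difference was 1.39 on the log2 scale (SE 0.18), higher in the libraries labelled Fmn2-/-_APP. Within lanes 5, 6 and 7 the log2 ratio of the group means was 1.08, 1.42 and 1.71 (3 against 3, 3 against 3, and 1 against 3 mice). These values come from the mice by which the gene was chosen, so they describe the difference and add no support for it.
Atp6v0c-ps2 ran the opposite way: 32.5, 17.6, 2.20, 12.5, 3.18, 3.67 and 2.13 CPM in replicates 1 to 7 of the libraries labelled Fmn2-/-_APP, against 11.4 to 31.8 CPM (median 26.02) in those labelled Fmn2+/+_APP. The reads of both gene models together came to 27.5 to 43.2 CPM (median 31.2) and 21.1 to 40.3 CPM (median 34.1). With the pair counted as 1 gene, an alternative chosen after seeing the data, the difference was -0.01 on the log2 scale (SE 0.11).

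**Figure D3:**
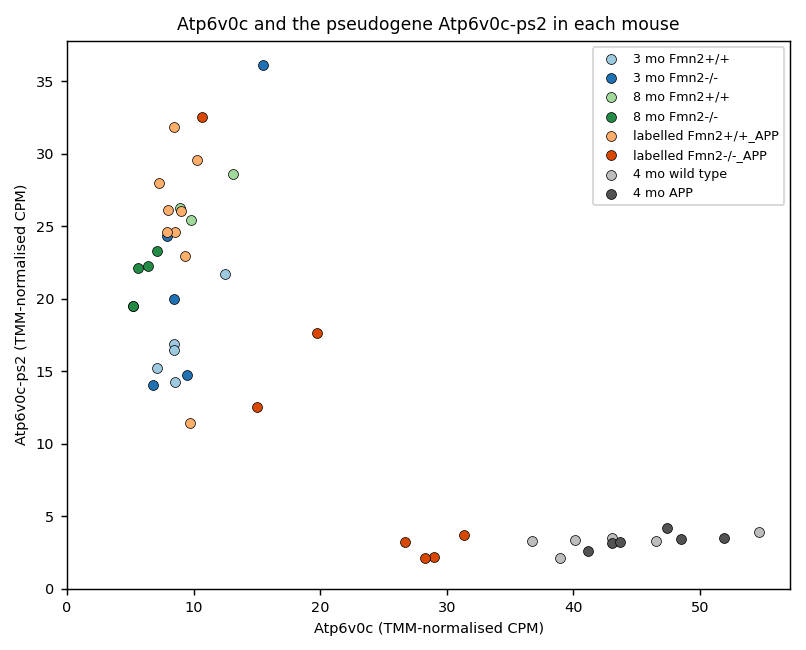
Atp6v0c (horizontal axis) against its pseudogene Atp6v0c-ps2 (vertical axis) in TMM-normalised CPM, 1 point per mouse, coloured by group. The mice of 4 months lie at the lower right, with Atp6v0c-ps2 at 2.09 to 4.15 CPM, together with 4 of the 7 libraries labelled Fmn2-/-_APP at 2.13 to 3.67 CPM but at a lower level of Atp6v0c.

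Over the 16 mice of the cross, the 5 genes whose log2 CPM was most like that of Atp6v0c all lay on chromosome 17. They were Zfp758 (Pearson r 0.95), Hmga1 (0.93), Rps2 (0.92), H2-T22 (0.92) and Zfp40 (0.92), among 16655 genes compared. These values are a description, the mice share lanes and depth, and no function is implied. Zfp758 was at 7.60, 15.9, 19.6, 11.3, 16.8, 16.6 and 16.6 CPM in replicates 1 to 7 of the libraries labelled Fmn2-/-_APP and at 6.24 to 9.43 CPM in the other group. Rps2 was at 24.8 CPM in replicate 1 and at 48.8 to 60.98 CPM in replicates 2 to 7, against 23.4 to 30.8 CPM. In both genes replicate 1 was within the range of the libraries labelled Fmn2+/+_APP. Atp6v0c-ps2 had an r of -0.91, the fourth lowest of all genes compared, and the other 9 subunits had an r between -0.58 (Atp6v1d) and 0.31 (Atp6v0a1).

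No close neighbour of Atp6v0c on chromosome 17 was called in the cross, where 0.774% of all genes were. Elsewhere on that chromosome, Zfp758, Hmga1, Rps2 and H2-T22 were called, with log2 differences of 0.91, 1.20, 0.88 and 0.86. Zfp40 was not called (0.37). Rps2 lies at 24718116 to 24721929. These genes were picked by their likeness to Atp6v0c, so their values are a description. The 5 nearest expressed genes on either side, between Elob and Abca3 and up to 334730 bases away, had log2 differences between -0.27 and 0.09 apart from Prss41. Amdhd2, whose gene ends 100 bases from Atp6v0c, was at 12.7 to 18.3 CPM in the libraries labelled Fmn2-/-_APP and at 10.8 to 19.1 CPM in those labelled Fmn2+/+_APP (log2 difference 0.03, adjusted p = 0.936 by edgeR). Prss41, a serine protease gene at 0 to 4.27 CPM against 1.75 to 3.97 CPM, had a log2 difference of -1.59 (SE 0.71, adjusted p = 0.267 by edgeR), with a median of 0.157 CPM in the libraries labelled Fmn2-/-_APP. Over the 16 mice of the cross the r of these neighbours with Atp6v0c ran from -0.96 (Prss41) to 0.34 (Kctd5), with -0.76 for Abca3, -0.65 for Ccnf and -0.64 for Tbc1d24, given as a description.

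The other 9 subunits differed little in the cross. Their log2 differences ran from -0.18 (Atp6v1a, SE 0.08) to 0.14 (Atp6v0a1, SE 0.06). Atp6v1a had a median of 935 CPM (795 to 1164) in the libraries labelled Fmn2-/-_APP and of 1041 CPM (965 to 1343) in those labelled Fmn2+/+_APP. The ranges overlapped, but the median of the first group was below the lowest value of the second. Atp6v0a1 had medians of 432 CPM (387 to 516) and 396 CPM (360 to 443), with ranges that overlapped. Atp6v1d had a log2 difference of -0.15 (SE 0.07). The median over the 10 genes was 0.05, beside 0.01 over all genes tested.

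In 3-month mice, no change of a subunit with loss of Fmn2 was detected. None of the 10 genes was called by edgeR's quasi-likelihood test (adjusted p under 0.05 with a log2 fold change of 0.25 or more in either direction), against 5 of 16630 genes (0.0301%), Fmn2 among them. At an unadjusted p under 0.05 there was 1, Atp6v0b, beside 10.5% of all genes, and DESeq2 also called none. Atp6v0b, of the c'' subunit, was at 138 to 157 CPM (median 143) in Fmn2+/+ and at 148 to 178 CPM (median 159) in Fmn2-/- mice, and the fold change was 0.14 on the log2 scale (SE 0.06, adjusted p = 0.442 by edgeR). All 10 fold changes lay between -0.04 and 0.14 on the log2 scale, with a median of 0.08 beside 0.00 over all genes. The only Fmn2-/- mouse on the lane of the Fmn2+/+ mice, replicate 1, was at 606 CPM of Atp6v1b2, against 672 to 765 CPM in the 5 Fmn2+/+ mice and 712 to 912 CPM in the 4 Fmn2-/- mice of the next lane. With lane as a covariate the median of the members became -0.11, and lane and genotype are nearly confounded here.

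In 8-month mice, Atp6v0c was lower in Fmn2-/- mice. It was at 13.1, 8.94 and 9.78 CPM in the 3 Fmn2+/+ mice and at 5.24, 6.43, 5.20, 7.07 and 5.60 CPM in the 5 Fmn2-/- mice, so the groups did not overlap. The log2 fold change was -0.88 (SE 0.16, adjusted p = 0.0393 by edgeR), the 1 call among the 10 genes, while 166 of 14665 genes (1.13%) were called in all. DESeq2 also called it (adjusted p = 0.00164), in a test that called 4.998% of genes. The counts behind it were small: 49 to 83 reads per Fmn2-/- mouse, and 558, 59 and 85 in the Fmn2+/+ mice. Its share of the reads of the pair was 25.4% to 31.5% in Fmn2+/+ and 20.2% to 23.3% in Fmn2-/- mice. Atp6v0c-ps2 was at 25.4 to 28.6 and at 19.5 to 23.3 CPM, without overlap (log2 fold change -0.33, SE 0.09, adjusted p = 0.0802 by edgeR). Without Fmn2+/+ replicate 2, in a fit that called 3087 of 15021 genes, its adjusted p was 0.0267 by edgeR. With the pair counted as 1 gene the log2 fold change was -0.46 (SE 0.09, adjusted p = 0.0448 by edgeR). Marker genes of other cell types also differed between these mice. The 4 astrocyte markers summed to 1343 to 1499 CPM in Fmn2+/+ and 1604 to 1847 CPM in Fmn2-/- mice, with none at 0. Among them Aqp4 was called higher, Gfap and Slc1a3 had log2 fold changes of 0.38 and 0.17, and Aldh1l1 had one of -0.20. The 4 oligodendrocyte markers summed to 1801 to 2136 and to 1143 to 1689.8 CPM, with log2 fold changes from -0.47 (Mbp) to -0.19 (Mog), none called and none at 0. The 6 granule cell markers summed to 798 to 842 and to 764 to 912 CPM, with C1ql2 called lower (log2 fold change -0.65) and the other 5 between -0.0018 and 0.11. The 5 microglia markers summed to 186 to 207 and to 204 to 230.5 CPM, none called. Their part in the lower Atp6v0c was not tested.

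The call held without Fmn2+/+ replicate 2 or 3 (adjusted p = 0.00252 and 0.0286 by edgeR), where 3087 of 15021 and 160 of 14950 genes were called. It was lost in the 6 other fits that left out 1 mouse, which called 4 to 10 genes each. Without Fmn2+/+ replicate 1, the only mouse of its lane and the most deeply sequenced, the log2 fold change was -0.66 (adjusted p = 0.325 by edgeR). Without Fmn2-/- replicate 1, 2, 3, 4 or 5 it was -0.83, -0.90, -0.83, -0.95 and -0.87 (adjusted p = 0.0731, 0.112, 0.111, 0.0891 and 0.0920 by edgeR). With lane as a covariate it was -0.66 (adjusted p = 0.324), and when Fmn2-/- replicates 2 and 3, which were close to each other, were merged it was -0.88 (adjusted p = 0.101, both by edgeR).

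The other subunits at 8 months ranged from -0.17 (Atp6v0b) to 0.32 (Atp6v1a) on the log2 scale, and none was called. Atp6v1a was at 801, 1094 and 714 CPM in Fmn2+/+ mice and at 1031 to 1188 CPM (median 1062) in Fmn2-/- mice, so 1 of the 3 Fmn2+/+ mice lay within the range of the Fmn2-/- mice (SE 0.12, adjusted p = 0.141 by edgeR). Atp6v1h, the regulatory subunit H, was at 175, 200 and 163 CPM and at 198 to 221 CPM (log2 fold change 0.20, SE 0.08, adjusted p = 0.160 by edgeR). Without Fmn2+/+ replicate 2, the shallowest library, both were called (log2 fold changes 0.53 and 0.29, adjusted p = 0.00155 and 0.0111 by edgeR). That fit called 3087 of 15021 genes in all. With correction for exon length and GC content Atp6v1a was at 0.22 and Atp6v1h at 0.01 (adjusted p = 0.256 and 0.946 by edgeR). The median over the 10 genes was -0.08, beside 0.01 over all genes.

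No subunit was called for a difference of its Fmn2-/- effect between 8 and 3 months, tested as an interaction over the 18 mice with edgeR, against 3.73% of 17046 genes, and 3 of the 10 had an unadjusted p under 0.05, beside 22.9% of all genes. The largest interaction was that of Atp6v0c at -0.99 on the log2 scale (SE 0.31, adjusted p = 0.0698 by edgeR). Atp6v0b came next in adjusted p, with -0.32 (SE 0.10, adjusted p = 0.0736 by edgeR), the c'' gene standing higher than in Fmn2+/+ mice at 3 months and lower at 8 months by values that did not pass the test at either age. DESeq2 called both genes (adjusted p = 0.0304 and 0.0324), with 8.22% of all genes called. Without 8-month Fmn2+/+ replicate 2, edgeR called Atp6v0c, Atp6v0b and Atp6v1a (log2 interactions of -1.07, -0.39 and 0.56, adjusted p = 0.0308, 0.0118 and 0.00862). With correction for exon length and GC content the 3 interactions were -0.90, -0.096 and 0.21 (adjusted p = 0.197, 0.697 and 0.5262 by edgeR).

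Between the APP and the wild type mice of 4 months no subunit was called (adjusted p under 0.05 by edgeR with a log2 fold change of 0.5 or more in either direction), against 2.34% of 16733 genes. No member had an unadjusted p under 0.05, against 14.3% of all genes, and DESeq2 called none. The 10 log2 fold changes ran from -0.02 (Atp6v1d, SE 0.05) to 0.09 (Atp6v0c, SE 0.08), with a median of 0.03 beside 0.00 over all genes. Atp6v0c was at 36.8 to 54.7 CPM (median 41.6) in wild type and at 41.2 to 51.9 CPM (median 45.6) in APP mice. Atp6v0a1 was at 647 to 696 CPM and at 634 to 683 CPM, a log2 fold change of -0.01 (SE 0.03). The 6 APP mice were sequenced on lane 7 and the 6 wild type mice on lane 5, so lane and genotype cannot be told apart.

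**Figure D4:**
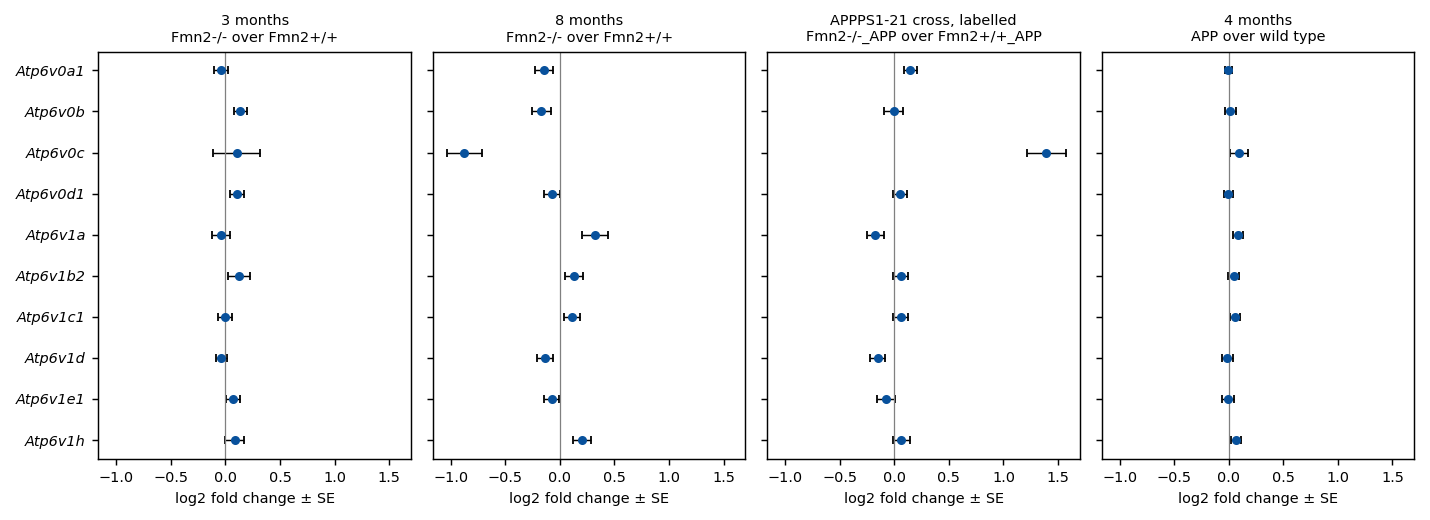
log2 fold change of each subunit gene (vertical axis) in 4 comparisons (panels), with bars of 1 SE from edgeR; the grey line marks 0. Atp6v0c stands apart at -0.88 at 8 months and at 1.39 in the cross, where it is a description. The signs follow the labels, and Fmn2 itself was at -1.89 at 8 months and at 2.15 in the cross. In each of these, Atp6v0c was lower in the group with less Fmn2. The other 9 genes lie between -0.18 and 0.32 in all 4 panels.

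The 26 other genes of the pump, which the choice of the 10 did not use, comprise remaining subunit isoforms, accessory proteins and assembly factors. Of these 22 were expressed enough to test at 3 months, in the cross, in the interaction and at 4 months, and 20 at 8 months. None was called by edgeR at 3 months, at 8 months or in the cross, where 0.0301%, 1.13% and 0.774% of all genes were. At an unadjusted p under 0.05 there were 5 of 22, 7 of 20 and 0 of 22, beside 10.5%, 23.3% and 16.6% of all genes. DESeq2 called Atp6v1f at 3 months, Rogdi at 8 months and none in the cross. Over all genes it called 91 of 16630, 733 of 14665 and 304 of 16656. Single mice mattered here too: edgeR called 1 gene (Atp6v1f) at 3 months without Fmn2-/- replicate 1, and 10 genes at 8 months without Fmn2+/+ replicate 2. These 2 fits called 49 of 16663 and 3087 of 15021 genes in all.

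Tcirg1, which encodes the a3 form of subunit a, known from osteoclasts and macrophages, was higher in APP mice of 4 months. It was the 1 call among the 22 other genes of the pump tested there, beside 2.34% of all genes. It was at 15.2 to 18.7 CPM (median 16.3) in wild type and at 21.1 to 25.8 CPM (median 22.6) in APP mice, without overlap (log2 fold change 0.50, SE 0.07, adjusted p = 0.000124 by edgeR). The value lay at the fold threshold, and DESeq2 gave 0.50 (adjusted p = 2.2e-09) just under it. The 5 microglia markers moved with it: 4 of the 5 were called higher (Csf1r, Cx3cr1, P2ry12 and Aif1), Tmem119 had a log2 fold change of 0.45, and their sum was 290.4 to 369.7 CPM in APP and 204 to 222 CPM in wild type mice, with none at 0. Their part in the higher Tcirg1 was not tested. The APP mice were on lane 7 and the wild type mice on lane 5, so lane and genotype cannot be told apart. Tcirg1 was below the fold threshold in 6 of the 12 fits that left out 1 mouse, with log2 fold changes of 0.47 and 0.47 without APP replicates 1 and 2 and of 0.48 to 0.50 without wild type replicates 1 to 4. Its adjusted p stayed at or below 0.00053 in all 12.

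For the change of the Fmn2-/- effect between 3 and 8 months, 2 of 22 other genes of the pump were called, both downward, beside 3.73% of all genes, and 0 to 9 were called when 1 mouse was left out. Atp6v1f, subunit F of the central stalk, was at 57.8 to 65.01 CPM in Fmn2+/+ and 67.5 to 78.2 CPM in Fmn2-/- mice of 3 months, and at 79.5 to 85.5 and 72.9 to 79.5 CPM at 8 months. The interaction was -0.39 on the log2 scale (SE 0.08, adjusted p = 0.0157 by edgeR), and its single-age fold changes of 0.27 and -0.11 did not pass (adjusted p = 0.141 and 0.308 by edgeR). Atp6v1c2, an isoform of subunit C, was at 3.78 to 5.48 and 5.23 to 6.84 CPM at 3 months and at 6.21 to 9.78 and 4.17 to 5.77 CPM at 8 months (interaction -0.83, SE 0.21, adjusted p = 0.0366 by edgeR). With correction for exon length and GC content the interactions were -0.22 and -0.73 and neither was called (adjusted p = 0.385 and 0.107 by edgeR). Without 8-month Fmn2+/+ replicate 1 they were -0.37 and -0.92, also not called (adjusted p = 0.101 and 0.106 by edgeR). Atp6v1c2 was called in 5 of the 18 fits that left out 1 mouse, and its lowest value, without 8-month Fmn2+/+ replicate 3, was -0.61 (adjusted p = 0.147 by edgeR).

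Around the pump, the MiT/TFE transcription factors, which drive lysosomal genes, and the Ragulator and Rag proteins, which couple the pump to mTORC1 on the lysosome, were looked at as lists. Of the 4 transcription factor genes 3 were tested (Tfeb, Tfe3 and Mitf). None was called by edgeR in any of the 5 fits, which called 0.0301% to 3.73% of all genes. Tfeb had the largest values, 0.24 at 3 months (SE 0.15) and -0.35 at 8 months (SE 0.22, adjusted p = 0.590 and 0.359 by edgeR), at 2.64 to 5.64 CPM in these mice. Of the 8 mTORC1 genes none was called at 3 months, at 8 months, in the cross or at 4 months. In these fits 0.0301%, 1.13%, 0.774% and 2.34% of all genes were called. In the interaction 1 of the 8 was called, beside 3.73% of all genes. This was Lamtor4, a Ragulator subunit, at -0.49 (SE 0.09, adjusted p = 0.00961 by edgeR). Lamtor4 was at 30.2 to 35.9 and 36.8 to 42.2 CPM at 3 months and at 43.0 to 47.6 and 36.4 to 40.7 CPM at 8 months. With correction for length and GC content the interaction was -0.21 (adjusted p = 0.343 by edgeR), and without 8-month Fmn2+/+ replicate 1 it was -0.45 (adjusted p = 0.0935 by edgeR).

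The subunits varied together from mouse to mouse, those of V1 most. After the group mean was taken off the log2 CPM of each gene, the median Pearson r over the 15 pairs of V1 genes was 0.77 (0.40 to 0.88), highest for Atp6v1b2 with Atp6v1h, over 46 mice. Pairs of a V0 with a V1 gene had a median of 0.27, and 40 of all 45 pairs were above 0. The V0 genes divided: Atp6v0d1 and Atp6v0b were like each other (0.80), and Atp6v0d1 had a median r of 0.72 with the other 9 genes, while Atp6v0a1 had 0.18 and Atp6v0c -0.01. Against all 16273 other genes above the CPM filter, the median r of each of the 10 lay between -0.03 and 0.01. Positive and negative values cancel in such a median, so it does not show how unusual the r within V1 is. The mice share lanes, depth and tissue composition, and these values are a description.

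**Figure D5:**
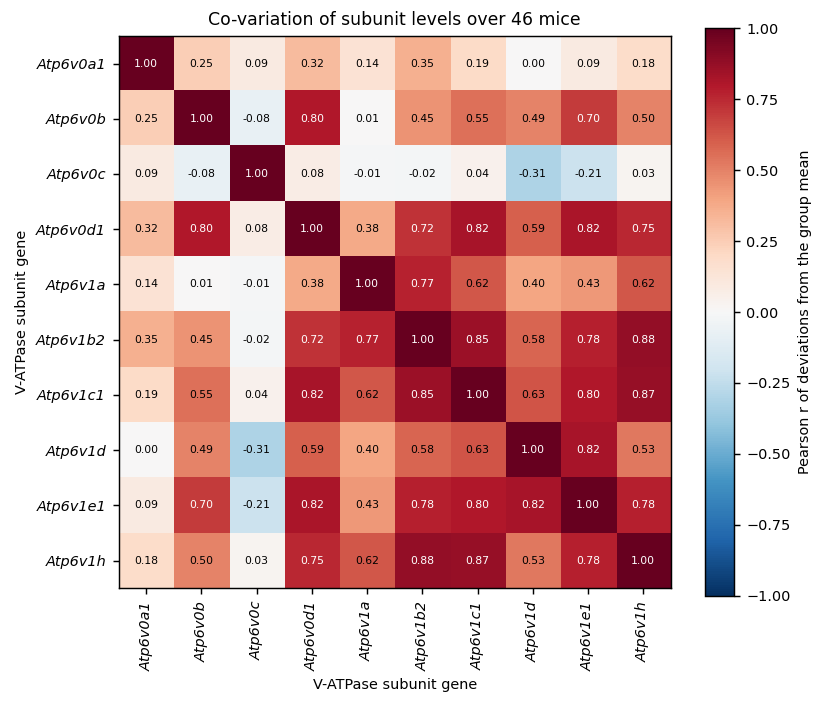
Pearson r between the levels of each pair of subunit genes (both axes) over 46 mice, from log2 CPM after the group mean was taken off; colour and number give r. The 6 V1 genes form a block with values from 0.40 to 0.88, and the off-diagonal values of Atp6v0c run from -0.31 to 0.09.

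The promoters of the 10 genes were searched for the E-box core CACGTG and for its extension TCACGTGA, which resembles the CLEAR element bound by TFEB, in RefSeq windows (GRCm38.p6) of 250 bases before to 50 bases after the start. Windows were found for 7 of the 10 genes. CACGTG, which reads the same on both strands, occurred in 3 of the 7 (Atp6v0b, Atp6v0d1 and Atp6v1a), in 3 of 18 other genes of the pump and in 8.09% of 27025 genes with a window. TCACGTGA, which contains the first, occurred in 2 of the 7, in 2 of the 18 and in 1.12% of genes. The 30 bases around each match are shown on the strand of the gene, with the core in capitals, since these are the letters that the 3 promoters share.
Atp6v0b: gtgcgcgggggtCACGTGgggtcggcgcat
Atp6v0d1: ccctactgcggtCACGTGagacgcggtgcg
Atp6v1a: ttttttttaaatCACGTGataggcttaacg
The windows are chr4:117887280-117887579, chr8:105566015-105566314 and chr16:44139210-44139509, all on the minus strand. A match is a description and not a bound site, and the 3 genes had log2 fold changes of 0.14, 0.11 and -0.04 at 3 months and of -0.17, -0.07 and 0.32 at 8 months.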

How the data were processed

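RNA-seq libraries of 46 mice in 8 groups were analysed, in 48 libraries, since 2 mice had a second run that was summed with the first. The counts per Ensembl gene were deposited by the authors, who aligned reads to mm10 with STAR and counted them with HTSeq in the intersection-non-empty mode. Read length and the handling of reads that match several places are not given in the sources used here. Symbols came from GENCODE M21 (48349 of 48709 identifiers matched). Groups came from the labels. Each comparison was fitted on the whole table with edgeR 4.0.16 in R 4.3.3 (TMM, filterByExpr, quasi-likelihood test, Benjamini-Hochberg), with DESeq2 1.42.0 as an alternative, and all 10 members passed the filter in each fit. Called genes had an adjusted p under 0.05 with a log2 fold change in either direction of 0.25 or more (Fmn2 alone, interaction) or 0.5 (with APPPS1-21). Other alternatives were DESeq2 size factors, no filter, exon length and GC offsets, lane, replicate number, summed libraries and each mouse left out. Summing Atp6v0c with its copy was chosen after seeing the data. RPKM used the union of exons. Likeness and co-variation used log2(CPM + 0.5). The count of members called in the cross, though planned, is not given, since that contrast was used in choosing them. The fits were tested on simulated data. The members and gene lists were chosen with earlier results of these data known. Genes named are the members, Fmn2, called or strongest genes of the lists, the 5 genes most like Atp6v0c in the cross and its 10 nearest expressed neighbours. Some genes of the marker lists are not reported here, and their lists were summed and counted without them.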

Additional observations from a re-analysis of the deposited data

Results flagged for a closer look

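In 3-month Fmn2+/+ mice, replicate 1 stood apart in Atp6v0c at 12.5 CPM, with the other 4 mice at 7.14 to 8.56 CPM. Replicate 8 of the libraries labelled Fmn2+/+_APP stood apart in Atp6v1c1, at 244.0 CPM against 283 to 313 CPM, and in Atp6v0c-ps2, at 11.4 CPM against 22.9 to 31.8 CPM. In wild type mice of 4 months, replicate 1 stood apart in Atp6v0c-ps2, at 2.09 CPM against 3.28 to 3.93 CPM. These are 4 outlying values by Dixon's test in 84 groups of samples tested, and chance flags about 1 in 20 groups.

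The Fmn2-/- effect differed between 8 and 3 months, by the interaction term in edgeR, for Lamtor4 (-0.49 on the log2 scale, adjusted p = 0.00961), Atp6v1f (-0.39, adjusted p = 0.0157) and Atp6v1c2 (-0.83, adjusted p = 0.0366). The 3 genes were not called with correction for exon length and GC content.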

How the results depend on the processing

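The limits are those of few and unevenly sequenced mice. With 1 mouse left out, 4 to 3087 genes were called at 8 months, the most without Fmn2+/+ replicate 2. At 3 months such fits called 3 to 49 genes. At 8 months, 166 genes were called in all, but 3 with lane as a covariate, 5 with Fmn2-/- replicates 2 and 3 summed, 34 with length and GC correction, 1124 with no filter on low counts and 733 with DESeq2. For the interaction the count of 635 became 27 with length and GC correction, 227 with replicates 2 and 3 summed, 399 with no filter and 1401 with DESeq2. At 3 months 5 genes became 91 with DESeq2, 14 with no filter, 3 with length and GC correction, lane or DESeq2 size factors, and in the cross 129 became 304 with DESeq2.

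Members called at 8 months numbered 1, and 0 with the lane covariate or replicates 2 and 3 summed, 2 with no filter, and 0 to 3 when 1 mouse was left out. The median of the members became -0.11 at 3 months with the lane covariate and -0.0034 at 8 months with length and GC correction. For the interaction, 0 members became 2 with DESeq2 and 0 to 3 with 1 mouse left out, and 2 other genes of the pump became 4 with DESeq2, 0 with length and GC correction, 1 with replicates summed and 0 to 9 with 1 mouse left out. Other genes of the pump called were 1 at 3 months with DESeq2 (0 to 1 with 1 mouse left out), 1 at 8 months with DESeq2 or no filter (0 to 10 with 1 mouse left out), and 0 at 4 months with DESeq2 or its size factors (0 to 1 with 1 mouse left out). In the cross Atp6v0c became -0.010 with its copy summed. Unless a construction above shows it, the cause was not tested.

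Direction turned only where the value was small or uncalled, apart from Atp6v0c with its copy. At 3 months Atp6v1c1 became 0.0058 with no filter and 0.041 with length and GC correction, under which Atp6v1a and Atp6v1d became 0.0092 and 0.0069. With the lane covariate Atp6v0d1 became -0.047, Atp6v1b2 -0.26, Atp6v1e1 -0.14, Atp6v1h -0.23 and Atp6v0c-ps2 -0.20. At 8 months Atp6v0d1 became 0.036 with length and GC correction. For the interaction Atp6v1b2 became 0.0039 with DESeq2 or its size factors and 0.022 with replicates summed, and length and GC correction gave -0.031 for Atp6v1c1 and -0.20 for Atp6v1h. At 4 months Atp6v0d1 became 0.00051 with no filter and Atp6v0b -0.0092 with length and GC correction. With 1 mouse left out, the values that crossed 0 ranged at 3 months from -0.15 to 0.24 (Atp6v0c), -0.10 to 0.020 (Atp6v1a) and -0.034 to 0.037 (Atp6v1c1), for the interaction from -0.094 to 0.091 (Atp6v1b2), and at 4 months from -0.016 to 0.0032 (Atp6v0a1), -0.017 to 0.037 (Atp6v0b), -0.033 to 0.019 (Atp6v0d1), -0.055 to 0.0084 (Atp6v1d), -0.053 to 0.022 (Atp6v1e1), -0.029 to 0.016 (Fmn2) and -0.057 to 0.10 (Atp6v0c-ps2).

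The replicate numbers did not pair the mice: deviations of same-numbered mice correlated at -0.14 to 0.22 at 3 months, -0.05 to -0.03 at 8 months, -0.35 to 0.28 in the cross and -0.20 to 0.19 at 4 months. With the replicate block, 4 genes were called at 8 months, 0 of them members (Atp6v0c -0.93, adjusted p = 0.326 by edgeR), Atp6v0c at 3 months became -0.16, and 1 other gene of the pump, Atp6v1c2, was called in the cross. The replicate block with length and GC correction gave 0 members at 8 months with a median of -0.014, and values of -0.17 (Atp6v0c), 0.010 (Atp6v1c1) and 0.022 (Atp6v1d) at 3 months, 0.0013 (Atp6v0d1) and -0.014 (Atp6v1c1) at 8 months and -0.0089 (Atp6v0b) at 4 months. The block changed no other call of a member or of another gene of the pump. No block was fitted for the interaction.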

Other observations

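The vesicular transporters, which load neurotransmitter with the proton gradient of the pump, were examined as 7 genes, of which 6 were tested. None was called by edgeR at 3 months, at 8 months, in the interaction, in the cross or at 4 months, where 1, 2, 1, 1 and 0 had an unadjusted p under 0.05, beside 10.5%, 23.3%, 22.9%, 16.6% and 14.3% of all genes. Slc17a6, the vesicular glutamate transporter VGLUT2, had the largest log2 difference in the cross, 2.26. It was at a median of 5.75 CPM in the libraries labelled Fmn2-/-_APP and 4.82 CPM in those labelled Fmn2+/+_APP, and 1 mouse of the first group at 152.7 CPM set the difference of the means. Slc17a6 also varied widely within the 3-month groups, from 2.96 to 56.6 CPM.
Atp6ap1l, a homologue of the accessory subunit Ac45, was at 5.98 to 8.90 CPM in the 12 mice of 4 months and at 0.356 to 6.18 CPM in the other 34 mice.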
